A study of Mus musculus with 18 samples.

Results

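Apolipoprotein E, lipid-exporting ABC transporters, stearoyl-CoA desaturases, a fatty acid binding protein and an apolipoprotein L were followed through erythroid progenitors of mice that differ in stem cell factor (Scf). The genes are Apoe, Abcg1, Abca1, Abca2, Scd1, Scd2, Fabp5 and Apol8, 8 of the 21967 genes in the count table. They were picked on these same libraries for differences between stages or genotypes, so their stage and genotype values are given as descriptions, without a test. The comparison of female with male mice was not used in picking them and is tested.

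RNA was sequenced from CFU-E and from PreCFU-E, the stage that precedes CFU-E, sorted from c-Kit-enriched bone marrow at 5000 to 10000 cells per library. Scf, also called Kitl, encodes the ligand of the receptor KIT. Scf KO/FL;Lepr-Cre mice, called Lepr-Cre mice here, carried a null and a floxed Scf allele together with Cre from the leptin receptor gene, which is active in marrow stromal cells. Scf KO/FL mice carried the null and the floxed allele without Cre, and Scf FL/FL mice carried floxed alleles alone. Every mouse thus had at least 1 floxed Scf allele, no group with Cre but without the null allele was analysed here, and the comparison with FL/FL mice joins the null allele and Cre. There were 3 mice per genotype, lettered A to C; both cell types came from each of the 9 mice, which makes 18 libraries in 6 groups. The B mouse of each genotype was female and the A and C mice were male, and their ages are not stated in the labels. Lepr-Cre acts in stromal cells and not in the cells sequenced, so the deletion itself cannot be read in these libraries: Kitl had 2 counts in all and was at 0 in 16 of 18 libraries.

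Lipids enter and leave cells by different routes that these genes serve. APOE is a lipid-carrying protein that binds receptors of the LDL family, and ABCA1 and ABCG1 pass cholesterol and phospholipid out of the cell to such carriers. The transcription of Apoe, Abca1 and Abcg1 is raised by the sterol-sensing liver X receptors in macrophages. Stearoyl-CoA desaturases put a double bond into saturated fatty acids, which sets the fluidity of membranes, and fatty acid binding proteins carry fatty acids within the cell. Erythroid progenitors build large amounts of membrane while they divide.

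Library totals ran from 3541066 to 9389122 counts, with 10782 to 13536 genes detected, and the chi-square between replicates of a group came to 7.75 to 18.9 for each degree of freedom, far above counting error. KO/FL PreCFU-E A was the shallowest library, and Lepr-Cre CFU-E B had the fewest genes detected. All 12 erythroid markers, among them Gata1, Klf1, Epor and Kit, were present in each group, and their summed level was 7667 to 10040 CPM, the counts scaled to a common library size. Single markers differed within that sum. In PreCFU-E of Lepr-Cre, KO/FL and FL/FL mice, Kit averaged 436, 714 and 807 CPM and Tfrc 713.5, 521 and 444 CPM. Rhag averaged 196, 115 and 91.3 CPM there, and the abundant Car1 2864, 2894 and 2922 CPM. The part of such marker differences in the genotype values below was not tested. CPM here includes TMM factors, and it compares a gene between libraries. In bulk RNA, fewer cells that express a gene and less of its RNA per cell cannot be told apart. The 14 macrophage markers summed to 2.44 to 10.3 CPM, megakaryocyte markers to 32.5 to 55.5 CPM, B cell markers to at most 14.9 CPM, and neutrophil, mast cell and T cell markers to less.

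The promoters of 3 of the genes are printed because they stand for the 2 patterns described below, levels that are lower in CFU-E (Apoe, Abca1) and higher in CFU-E (Apol8). The sequences are the 250 bases before the RefSeq transcript start, 5′ to 3′ on the gene's strand, build GRCm38.p6. Apoe lies on the minus strand at chr7:19699189-19699438, Abca1 on the minus strand at chr4:53159896-53160145 and Apol8 on the minus strand at chr15:77757011-77757260. Capitals mark the matches of any of 6 motifs, searched on both strands.
Apoe: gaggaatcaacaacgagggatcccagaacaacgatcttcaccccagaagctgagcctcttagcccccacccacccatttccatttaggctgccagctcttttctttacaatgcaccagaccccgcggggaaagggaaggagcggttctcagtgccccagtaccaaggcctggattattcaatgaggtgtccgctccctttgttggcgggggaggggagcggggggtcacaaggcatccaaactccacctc
Abca1: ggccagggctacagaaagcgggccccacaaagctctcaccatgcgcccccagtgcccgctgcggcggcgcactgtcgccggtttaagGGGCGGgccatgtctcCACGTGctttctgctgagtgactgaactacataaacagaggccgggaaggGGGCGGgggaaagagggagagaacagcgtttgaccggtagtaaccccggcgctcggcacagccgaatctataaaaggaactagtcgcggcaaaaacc
Apol8: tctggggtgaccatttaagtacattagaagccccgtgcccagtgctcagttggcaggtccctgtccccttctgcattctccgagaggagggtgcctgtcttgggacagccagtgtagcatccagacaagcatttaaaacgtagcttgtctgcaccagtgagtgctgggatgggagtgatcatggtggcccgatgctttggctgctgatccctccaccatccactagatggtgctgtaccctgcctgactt

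Abca1 held the GC box GGGCGG at 163 to 158 and at 97 to 92 bases before the start and the E-box CACGTG at 147 to 142 bases before it. Of 32851 promoters of that length, 32.7% held GGGCGG and 6.02% held CACGTG. The other motifs were AGATAA of GATA factors, in 9.99% of promoters, TTC and GAA with 3 bases between them for STAT factors, in 7.02%, AGGTCA of nuclear receptors, in 4607 promoters, and CCAAT, in 33.8%, and none of them was in these 3 windows. No match overlapped another. The printed Apoe and Abca1 windows end at the GENCODE gene start and the Apol8 window 7 bases from it, and the other Apoe start sites listed, inside the gene, also had no match. A window for Abca2, at chr2:25428349-25428598 on the plus strand, held none of the 6 motifs. Abcg1, Scd1, Scd2 and Fabp5 had no entry in the promoter table.

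Apoe, the lipid carrier of the set, is on chromosome 7 at 19696109 to 19699188 (GRCm38, minus strand), with 2138 bases of exon. In CFU-E it had 21.9, 24.02 and 18.99 CPM in Lepr-Cre mice, 17.6, 29.9 and 25.8 CPM in KO/FL mice, and 19.95, 19.7 and 27.3 CPM in FL/FL mice (A, B and C in turn). In PreCFU-E it had 77.0, 102 and 103 CPM in Lepr-Cre mice, 211, 372 and 366 CPM in KO/FL mice, and 306, 407 and 365 CPM in FL/FL mice. Every CFU-E library lay below every PreCFU-E library, the 3 Lepr-Cre PreCFU-E libraries lay between the CFU-E libraries and the PreCFU-E libraries of the other genotypes, and the genotypes overlapped in CFU-E. The log2 fold change of CFU-E over PreCFU-E was -2.12 ± 0.23 in Lepr-Cre mice, -3.70 ± 0.23 in KO/FL mice and -4.002 ± 0.24 in FL/FL mice (± SE of the edgeR fit). Lepr-Cre over FL/FL was -1.93 ± 0.21 in PreCFU-E and -0.03 ± 0.25 in CFU-E, and Lepr-Cre over KO/FL was -1.75 ± 0.21 in PreCFU-E and -0.17 ± 0.25 in CFU-E. Macrophages are rich in Apoe, and the 14 macrophage markers summed to 5.48 to 8.22 CPM in Lepr-Cre PreCFU-E, 4.97 to 10.3 CPM in KO/FL PreCFU-E and 3.86 to 5.38 CPM in FL/FL PreCFU-E, against 306 to 407 CPM of Apoe in that last group. In FL/FL PreCFU-E 7 of the 14 had a count, and the complement genes C1qa, C1qb and C1qc were at 0. In KO/FL PreCFU-E 11 of the 14 had a count, with 5 summed counts of C1qa, 9 of C1qb and 0 of C1qc. In Lepr-Cre PreCFU-E 8 had a count, with 0, 1 and 0 for the same complement genes. Cd163 was the highest of the 14 in PreCFU-E, at 2.93, 3.21 and 2.69 CPM in Lepr-Cre, KO/FL and FL/FL mice. In CFU-E it averaged 0.412, 1.12 and 1.44 CPM, so it was lower there, as Apoe was. Cd68 averaged 1.11, 0.771 and 0.619 CPM in PreCFU-E and 1.02, 0.735 and 1.38 CPM in CFU-E. The part of macrophages in the Apoe levels was not tested.

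**Figure D1:**
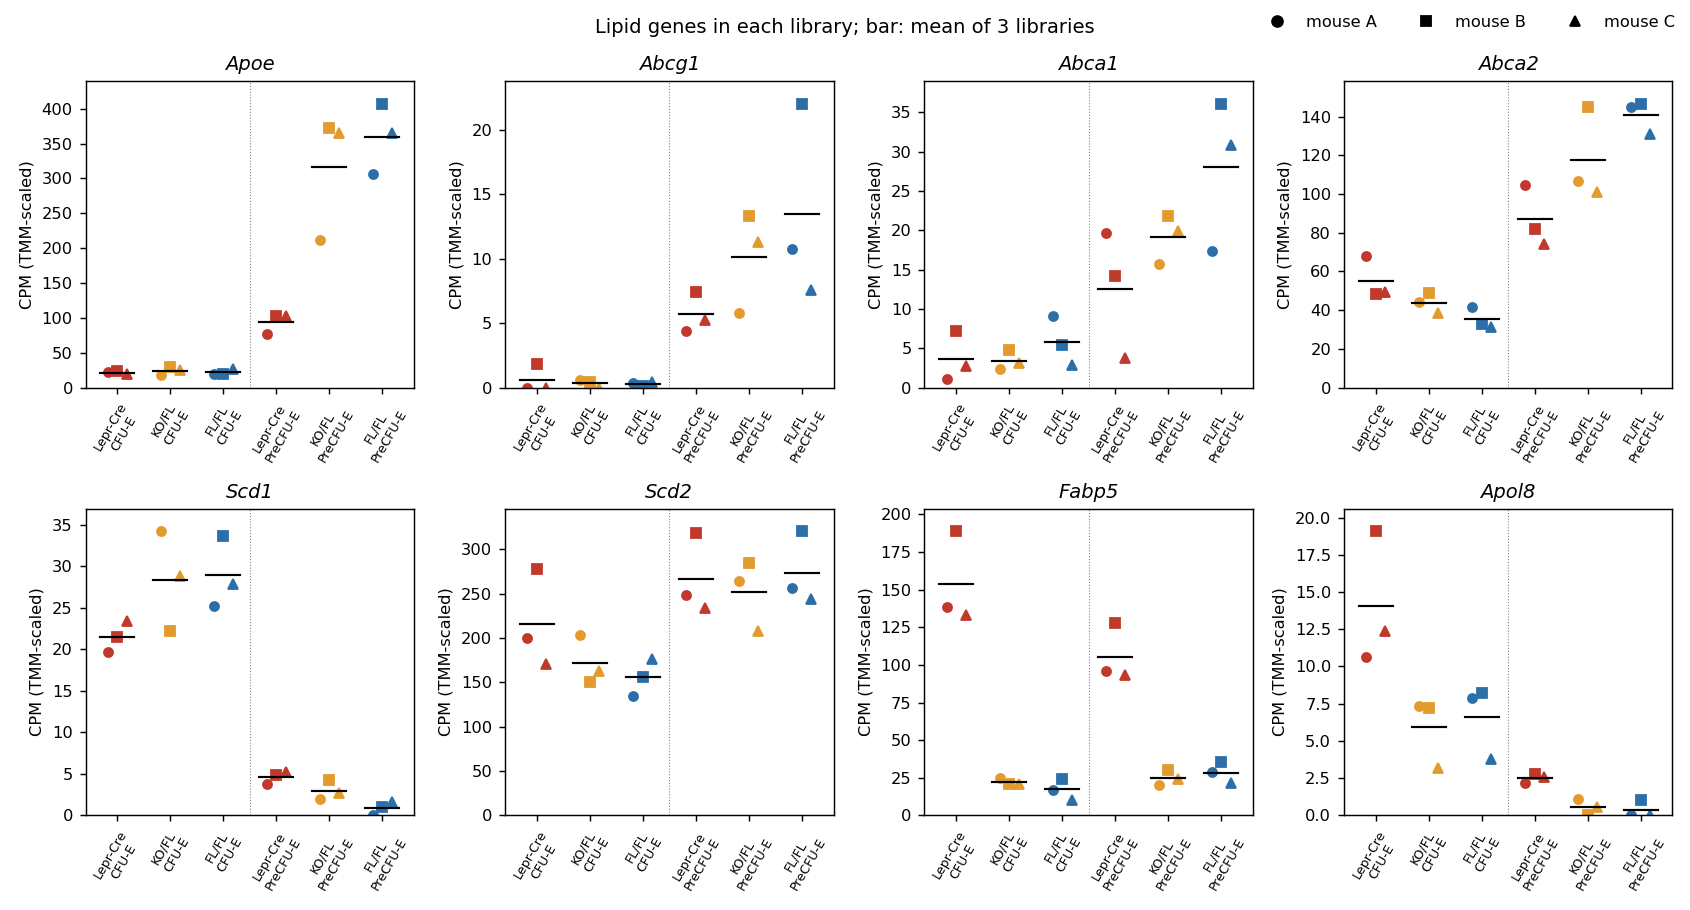
Levels of the 8 genes in each of the 18 libraries, in CPM on a linear axis from 0, with CFU-E groups left of the dotted line and PreCFU-E groups right of it. Each symbol is a library, its shape gives the mouse letter, and bars are means of 3 libraries. Apoe reaches 306 to 407 CPM in FL/FL PreCFU-E, and Fabp5 lies at 93.1 to 189 CPM in the 6 Lepr-Cre libraries.

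The cholesterol exporters Abca1 and Abcg1 were low and also lower in CFU-E. Abca1 (chromosome 4, 53030787 to 53159895, minus strand) had 1.06, 7.21 and 2.775 CPM in Lepr-Cre CFU-E, 2.37, 4.75 and 3.15 CPM in KO/FL CFU-E and 9.17, 5.39 and 2.94 CPM in FL/FL CFU-E. In PreCFU-E it had 19.6, 14.2 and 3.72 CPM in Lepr-Cre mice, 15.75, 21.75 and 19.9 CPM in KO/FL mice and 17.4, 36.1 and 30.8 CPM in FL/FL mice. The genotypes overlapped at both stages, and in Lepr-Cre mice the stages overlapped too. The log2 fold change of CFU-E over PreCFU-E was -1.79 ± 0.60 in Lepr-Cre mice, -2.48 ± 0.60 in KO/FL mice and -2.29 ± 0.59 in FL/FL mice. Lepr-Cre over FL/FL was -1.15 ± 0.46 in PreCFU-E and -0.64 ± 0.66 in CFU-E. Lepr-Cre over KO/FL was -0.62 ± 0.46 in PreCFU-E and 0.10 ± 0.67 in CFU-E, where leaving out Lepr-Cre B turned it to -0.85. Without that library the CFU-E value over FL/FL was -1.59 and the stage value in Lepr-Cre mice -2.72.

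Abcg1 (chromosome 17, 31057675 to 31117988, plus strand) was near the limit of detection in CFU-E, with 12, 9 and 7 counts summed over the Lepr-Cre, KO/FL and FL/FL libraries. In Lepr-Cre CFU-E, B had 1.80 CPM while A and C had 0 counts, which allows up to 0.354 and 0.438 CPM at 3 counts; this floor covers counting error alone. KO/FL CFU-E had 0.564, 0.452 and 0 CPM, the last allowing up to 0.430 CPM, and FL/FL CFU-E had 0.3595, 0.117 and 0.4705 CPM. All CFU-E libraries lay below all PreCFU-E libraries. In PreCFU-E it had 4.38, 7.39 and 5.26 CPM in Lepr-Cre mice, 5.80, 13.35 and 11.3 CPM in KO/FL mice and 10.75, 22.02 and 7.59 CPM in FL/FL mice, with Lepr-Cre libraries below every FL/FL library and overlapping KO/FL. The log2 fold change of CFU-E over PreCFU-E was -3.28 ± 0.86 in Lepr-Cre mice, -4.78 ± 0.90 in KO/FL mice and -5.36 ± 0.93 in FL/FL mice, and the first became -2.66 without the Lepr-Cre CFU-E library A and -8.43 without the Lepr-Cre CFU-E library B, whose 12 counts were the group's whole signal. In PreCFU-E, Lepr-Cre over FL/FL was -1.23 ± 0.41 and Lepr-Cre over KO/FL -0.85 ± 0.42. The filter on low counts removed Abcg1 from the genotype comparisons in CFU-E.

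Abca2, a transporter of the endolysosomal membrane (chromosome 2, 25428703 to 25448540, plus strand), differed between genotypes in opposite directions at the 2 stages. In CFU-E it had 67.9, 48.2 and 49.4 CPM in Lepr-Cre mice, 44.1, 48.8 and 38.4 CPM in KO/FL mice and 41.9, 32.8 and 31.4 CPM in FL/FL mice. In PreCFU-E it had 104, 81.9 and 74.3 CPM in Lepr-Cre mice, 107, 145 and 101 CPM in KO/FL mice and 145, 147 and 131 CPM in FL/FL mice. Lepr-Cre lay above FL/FL in CFU-E and below it in PreCFU-E without overlap, KO/FL means lay between them at both stages, and each CFU-E library was below each PreCFU-E library of its genotype. Lepr-Cre over FL/FL was 0.66 ± 0.19 in CFU-E and -0.69 ± 0.15 in PreCFU-E on the log2 scale, and Lepr-Cre over KO/FL was 0.34 ± 0.19 in CFU-E and -0.44 ± 0.15 in PreCFU-E. The log2 fold change of CFU-E over PreCFU-E was -0.65 ± 0.17 in Lepr-Cre mice, -1.43 ± 0.17 in KO/FL mice and -1.9999 ± 0.17 in FL/FL mice.

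The desaturases Scd1 and Scd2, neighbours 87590 bases apart on chromosome 19, took opposite directions between the stages. Scd1 (44394455 to 44407879, minus strand) had 19.7, 21.5 and 23.4 CPM in Lepr-Cre CFU-E, 34.2, 22.1 and 28.8 CPM in KO/FL CFU-E and 25.2, 33.65 and 27.9 CPM in FL/FL CFU-E. In PreCFU-E it had 3.835, 4.82 and 5.26 CPM in Lepr-Cre mice, 1.93, 4.27 and 2.67 CPM in KO/FL mice and 0, 1.035 and 1.66 CPM in FL/FL mice, where the 0 allows up to 0.310 CPM. All CFU-E libraries lay above all PreCFU-E libraries, and Lepr-Cre lay below FL/FL in CFU-E but above it in PreCFU-E, in both without overlap. The log2 fold change of CFU-E over PreCFU-E was 2.21 ± 0.39 in Lepr-Cre mice, 3.20 ± 0.42 in KO/FL mice and 5.09 ± 0.48 in FL/FL mice. Lepr-Cre over FL/FL was -0.41 ± 0.22 in CFU-E and 2.41 ± 0.87 in PreCFU-E, the last on 112 and 19 summed counts in the Lepr-Cre and FL/FL libraries. It was 1.78 without FL/FL A and 3.24 without FL/FL C, and the stage value in FL/FL mice was 4.40 and 5.97 without the same PreCFU-E libraries. Lepr-Cre over KO/FL was -0.39 ± 0.22 in CFU-E and 0.63 ± 0.80 in PreCFU-E, with overlap at both stages.

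Scd2 (44293674 to 44306864, plus strand) was abundant at both stages. It had 200.2, 278 and 171 CPM in Lepr-Cre CFU-E, 203, 150.0 and 162 CPM in KO/FL CFU-E and 135, 156 and 177 CPM in FL/FL CFU-E. In PreCFU-E it had 248, 319 and 234 CPM in Lepr-Cre mice, 264, 284.5 and 208 CPM in KO/FL mice and 256, 320.3 and 244 CPM in FL/FL mice. The genotypes overlapped at both stages, and the stages overlapped in Lepr-Cre mice alone. The log2 fold change of CFU-E over PreCFU-E was -0.30 ± 0.18 in Lepr-Cre mice, -0.55 ± 0.18 in KO/FL mice and -0.81 ± 0.18 in FL/FL mice. In CFU-E, Lepr-Cre over FL/FL was 0.49 ± 0.17 and in PreCFU-E -0.03 ± 0.14. Of the counts of both desaturases together, Scd1 took 9.39% ± 2.46 in Lepr-Cre CFU-E, 14.1% ± 1.13 in KO/FL CFU-E and 15.7% ± 2.08 in FL/FL CFU-E, against 1.74% ± 0.403, 1.16% ± 0.388 and 0.332% ± 0.338 in PreCFU-E of the same genotypes (SD, n = 3 each). Scd1 shared 4.56% of its 50-base transcript windows with other genes and Scd2 3.97%, mostly with each other, Scd3 and Scd4, so a small part of their reads may be assigned uncertainly. Scd3 and Scd4 had 31 and 61 counts over all 18 libraries, and FL/FL PreCFU-E A had no Scd1 count beside an Scd2 level of 256 CPM.

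**Figure D2:**
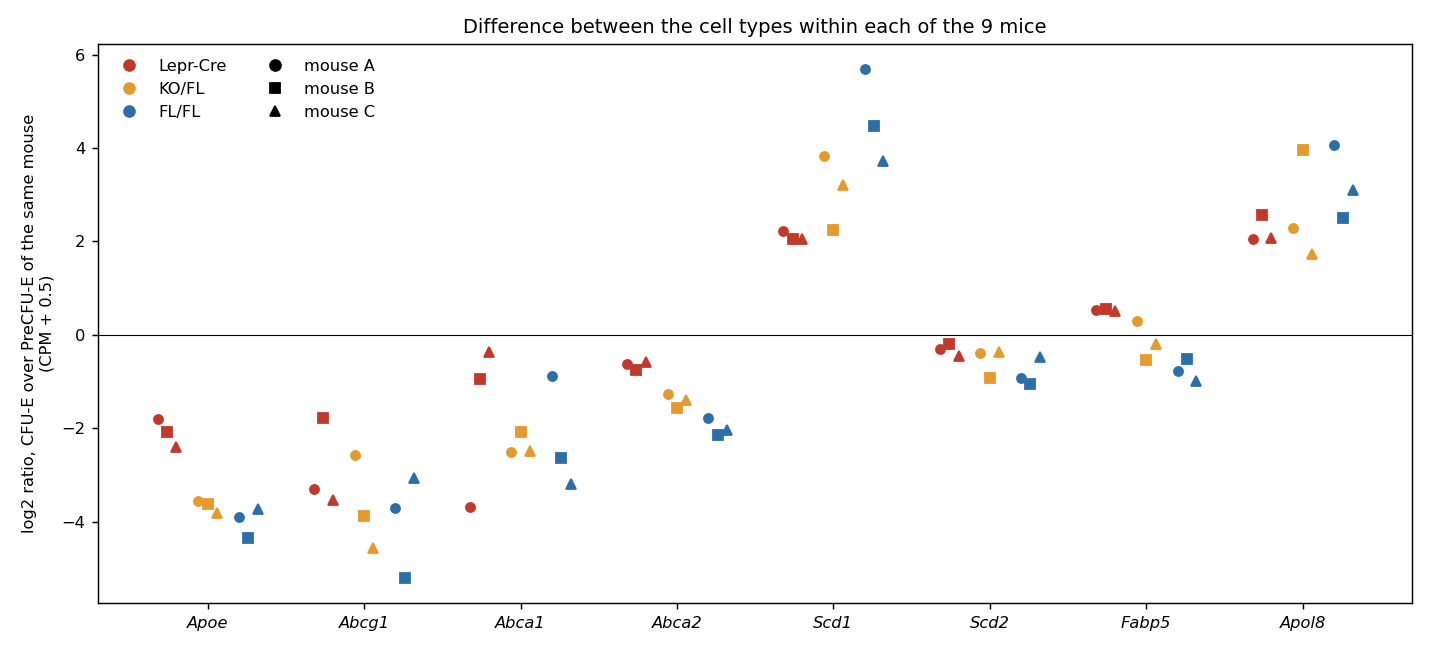
Log2 ratio of CFU-E over PreCFU-E within each of the 9 mice, on CPM with 0.5 added, for the 8 genes, coloured by genotype with the mouse letter as the shape. Apoe, Abcg1, Abca1, Abca2 and Scd2 are below 0 in 9 of 9 mice, Scd1 and Apol8 above 0 in 9 of 9, and Fabp5 is above 0 in 3 of 3 Lepr-Cre mice and below 0 in 3 of 3 FL/FL mice.

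Fabp5, a fatty acid binding protein (chromosome 3, 10012548 to 10016607, plus strand), followed genotype more than stage. It had 139, 189 and 133 CPM in Lepr-Cre CFU-E, 25.04, 20.8 and 21.1 CPM in KO/FL CFU-E and 16.7, 24.5 and 10.5 CPM in FL/FL CFU-E. In PreCFU-E it had 95.7, 128 and 93.1 CPM in Lepr-Cre mice, 20.2, 30.15 and 24.2 CPM in KO/FL mice and 28.7, 35.2 and 21.25 CPM in FL/FL mice. All 6 Lepr-Cre libraries lay above all 12 others, and KO/FL overlapped FL/FL at both stages. The level in Lepr-Cre over FL/FL was 3.17 ± 0.24 in CFU-E and 1.90 ± 0.20 in PreCFU-E, and Lepr-Cre over KO/FL was 2.79 ± 0.24 in CFU-E and 2.07 ± 0.20 in PreCFU-E on the log2 scale. CFU-E over PreCFU-E was 0.54 ± 0.22 in Lepr-Cre mice, -0.17 ± 0.24 in KO/FL mice and -0.72 ± 0.24 in FL/FL mice. Within mice the CFU-E level was higher in 3 of 3 Lepr-Cre, 1 of 3 KO/FL and 0 of 3 FL/FL mice. Fabp5 shared 5.48% of its 50-base windows with copies such as Gm6166, which have no row in the count table, so its level may hold or lack a few of their reads.

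Apol8, an apolipoprotein L family gene (chromosome 15, 77747798 to 77757003, minus strand), was higher in CFU-E and highest in Lepr-Cre mice. It had 10.6, 19.1 and 12.4 CPM in Lepr-Cre CFU-E, 7.33, 7.23 and 3.15 CPM in KO/FL CFU-E and 7.91, 8.21 and 3.76 CPM in FL/FL CFU-E. In PreCFU-E it had 2.19, 2.80 and 2.57 CPM in Lepr-Cre mice, 1.105, 0 and 0.594 CPM in KO/FL mice and 0, 1.035 and 0 CPM in FL/FL mice, with the zeros allowing up to 0.413 CPM in KO/FL B and 0.310 and 0.414 CPM in FL/FL A and C. Lepr-Cre libraries lay above both other genotypes at both stages, and all CFU-E libraries lay above all PreCFU-E libraries. The log2 fold change of CFU-E over PreCFU-E was 2.47 ± 0.69 in Lepr-Cre mice, 3.56 ± 0.85 in KO/FL mice and 4.33 ± 0.86 in FL/FL mice. On the same scale, Lepr-Cre over FL/FL was 1.10 ± 0.42 in CFU-E and 2.92 ± 1.26 in PreCFU-E, and Lepr-Cre over KO/FL was 1.25 ± 0.42 in CFU-E and 2.28 ± 1.25 in PreCFU-E. The PreCFU-E values rest on 61, 8 and 7 summed counts in Lepr-Cre, KO/FL and FL/FL mice; without FL/FL B, the source of all FL/FL counts, the log2 fold change of Lepr-Cre over FL/FL was 7.22 and that of CFU-E over PreCFU-E in FL/FL mice 8.63. Without FL/FL A these were 2.28 and 3.66, and without FL/FL C Lepr-Cre over FL/FL lay between 2.28 and 2.92. Without KO/FL A or B, Lepr-Cre over KO/FL was 3.05 or 1.60 in PreCFU-E and the stage value in KO/FL mice 4.28 or 2.85.

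**Figure D3:**
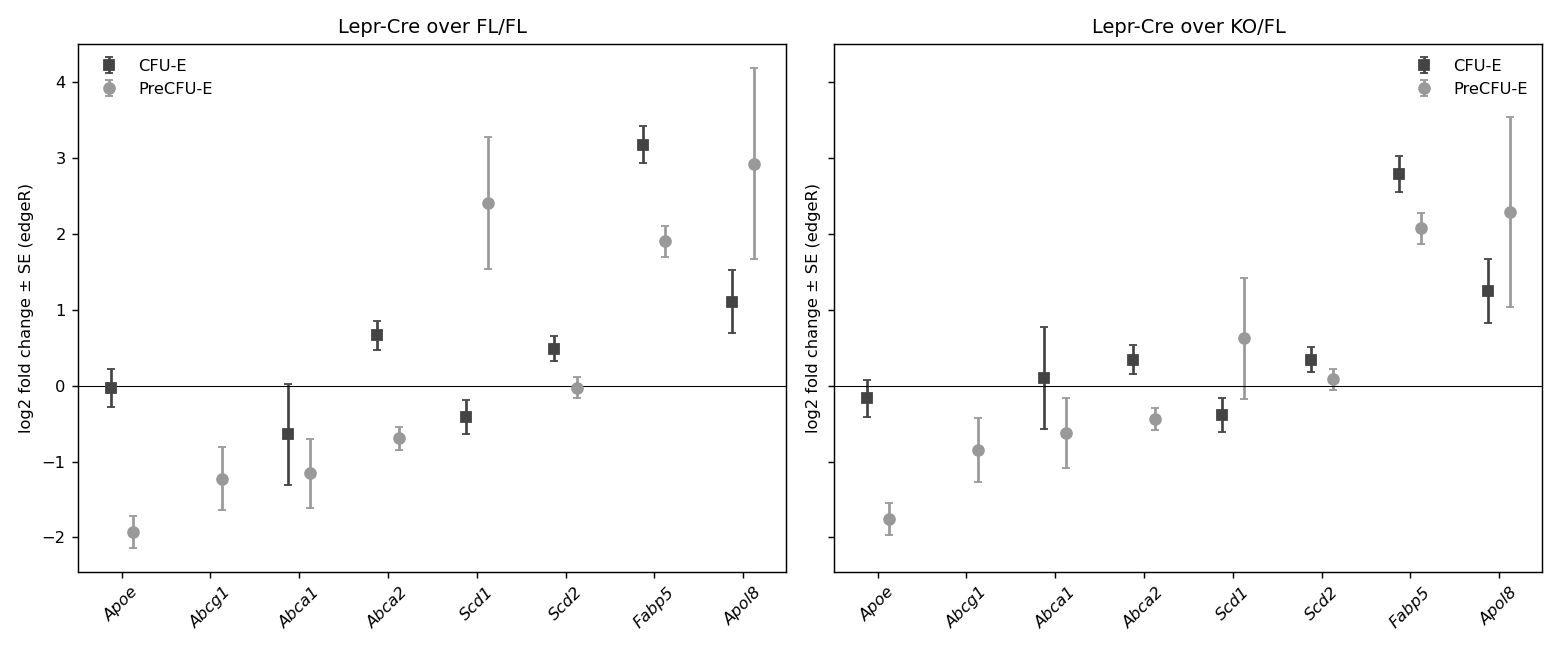
Log2 fold changes of the 8 genes for Lepr-Cre over FL/FL (left) and Lepr-Cre over KO/FL (right), with CFU-E as squares and PreCFU-E as circles; bars are SE of the edgeR fit. Fabp5 is above 0 in all 4 comparisons, Apoe is at -1.93 and -1.75 in PreCFU-E and near 0 in CFU-E, and Abcg1 has no CFU-E value.

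The ranking of the genes within a library was read on CPM per kilobase of exon. In FL/FL PreCFU-E, Apoe led at 168 ± 23.8, followed by Scd2 at 50.03 ± 7.53, Abca2 at 16.9 ± 1.04 and Fabp5 at 7.96 ± 1.95 (mean ± SD, n = 3), and Scd1 and Apol8 were last at 0.183 ± 0.171 and 0.116 ± 0.202. In Lepr-Cre PreCFU-E, Apoe at 43.95 ± 6.88 and Scd2 at 48.9 ± 8.32 lay within their spread of each other, with Fabp5 next at 29.6 ± 5.39. In Lepr-Cre CFU-E, Fabp5 at 43.05 ± 8.57 and Scd2 at 39.6 ± 10.1 led, and Apoe followed at 10.1 ± 1.18. In FL/FL CFU-E, Scd2 led at 28.5 ± 3.84, Apoe was next at 10.4 ± 2.02, and Scd1 at 5.91 ± 0.886, Fabp5 at 4.83 ± 1.97 and Abca2 at 4.24 ± 0.681 came next. Fabp5 lay within the spread of Scd1 and of Abca2, while Scd1 lay above Abca2 in every library. Abca1 and Abcg1 were last in CFU-E of all 3 genotypes, at 0.330 to 0.563 and 0.0433 to 0.0823.

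**Figure D4:**
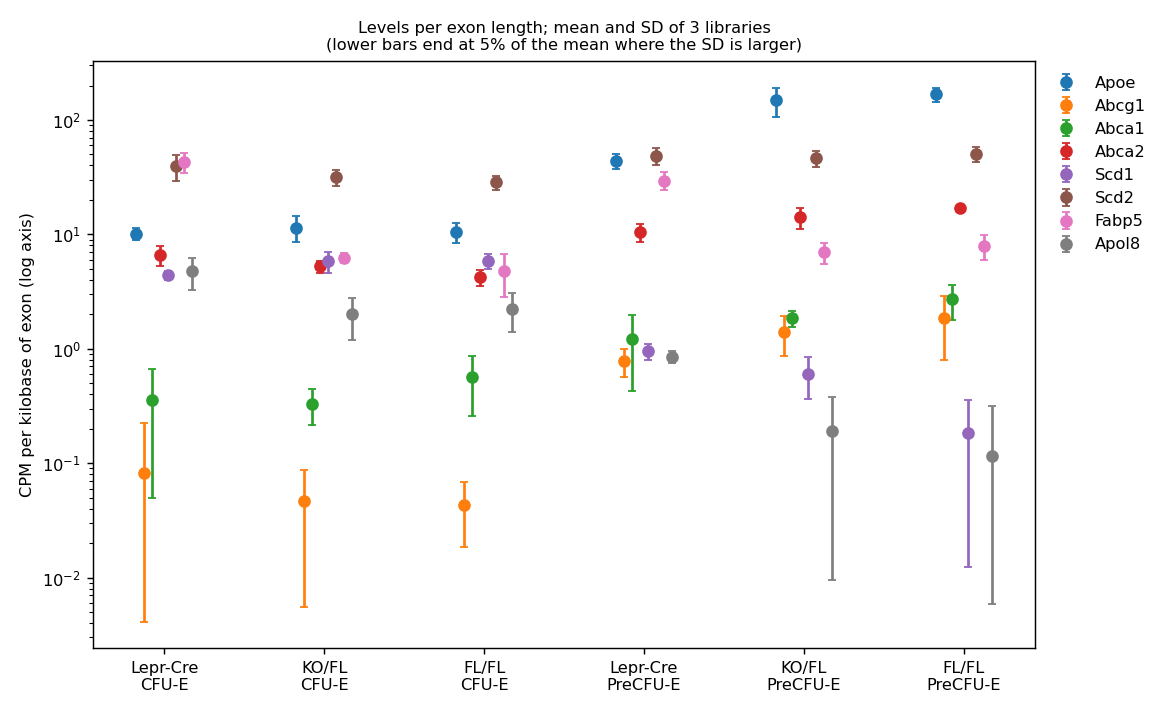
Mean level of each gene in the 6 groups in CPM per kilobase of exon, on a log axis, with CFU-E groups on the left; bars are the SD of 3 libraries, with the lower bar ended at 5% of the mean where the SD exceeds 95% of it. Apoe spans 10.1 to 168 and Scd2 28.5 to 50.03 over the groups.

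The order of the groups by mean CPM differed between the genes. Apoe, Abcg1, Abca1 and Abca2 were each highest in FL/FL PreCFU-E, then KO/FL PreCFU-E, then Lepr-Cre PreCFU-E, and of these steps the one between KO/FL and Lepr-Cre was free of overlap for Apoe alone. Scd1 had the reverse order of genotypes in PreCFU-E, with overlap between Lepr-Cre and KO/FL and none between KO/FL and FL/FL. For Scd2, each neighbouring pair in the order overlapped. For Fabp5 the order was Lepr-Cre CFU-E, Lepr-Cre PreCFU-E, then the other groups, and the first steps were free of overlap while the other 4 groups overlapped their neighbours.

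Counts of calls at an adjusted p of 0.05 (edgeR, quasi-likelihood test, Benjamini-Hochberg over all tested genes) describe the genes but carry no weight, since the contrasts were used to pick them. In PreCFU-E, Lepr-Cre against FL/FL called 3 of 8 (Fabp5 higher, Apoe and Abca2 lower), beside 6.13% of all genes tested, and Lepr-Cre against KO/FL called 2 of 8 (Fabp5 higher, Apoe lower), beside 2.18%. With the replicate letter as a block, the first called 5 of 8, adding Abcg1 and Scd1, and the second 3 of 8, adding Abca2, while calls over all genes were 1586 in place of 632, and 840 in place of 225 against KO/FL. In CFU-E, Lepr-Cre against FL/FL called 2 of 7 tested (Abca2 and Fabp5 higher), beside 4.83%, and Lepr-Cre against KO/FL called Fabp5 alone, beside 1.01%, with 280 in place of 103 calls over all genes under the block. The CFU-E call of Abca2 was lost without FL/FL A, B or C or without Lepr-Cre A or C, each of which left 1 of 7 called apart from Lepr-Cre C, where Scd2 was called beside Fabp5.

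KO/FL against FL/FL called none of the 8 in PreCFU-E and none of 7 in CFU-E by edgeR or DESeq2, nor had any an unadjusted p below 0.05, and the background was 0 of all genes by edgeR at both stages. Over all genes, unadjusted p fell below 0.05 for 350 genes in PreCFU-E and 210 in CFU-E, and DESeq2 called 5 and 1. The letter block called 9 genes in PreCFU-E. KO/FL over FL/FL of the 8 genes ran from -0.53 (Abca1) to 1.78 ± 0.87 (Scd1, on 56 and 19 summed counts; 1.15 without FL/FL A and 2.62 without FL/FL C) in PreCFU-E, and from -0.74 ± 0.66 (Abca1) to 0.38 ± 0.24 (Fabp5) in CFU-E.

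CFU-E against PreCFU-E called 5 of 8 in Lepr-Cre mice, beside 7.25% of all genes, 7 of 8 in KO/FL mice, beside 14.1%, and 8 of 8 in FL/FL mice, beside 18.3%. Scd1 and Apol8 were the higher ones in each genotype, and Apoe, Abcg1 and Abca2 were called lower in each. Abca1 and Scd2 were called lower in KO/FL and FL/FL mice, and Fabp5 lower in FL/FL mice. With mouse as a block, Lepr-Cre mice had 7 of 8 called, adding Scd2 and Fabp5, and 1323 in place of 778 calls over all genes. Without Lepr-Cre PreCFU-E A or B, or without Lepr-Cre CFU-E C, 3 of 8 were called there. The KO/FL call of Scd2 was lost without PreCFU-E A or B or CFU-E B or C, and the FL/FL call of Fabp5 without PreCFU-E A or B or CFU-E A or C. The 3 genotypes share no library in these comparisons, but differences between their stage effects were not tested for the 8 genes. The sum of stromal markers moved with the stage: the 10 genes summed to 3.78 to 6.76, 1.43 to 2.26 and 0.4705 to 2.16 CPM in CFU-E of Lepr-Cre, KO/FL and FL/FL mice, against 13.1 to 26.7, 7.28 to 14.9 and 10.1 to 17.15 CPM in PreCFU-E. In PreCFU-E the sum was mainly Col1a2 and Pdgfrb. Lepr ran the other way, at 1.175, 0.434 and 0.117 CPM in CFU-E of Lepr-Cre, KO/FL and FL/FL mice and 0.397, 0.0495 and 0 CPM in PreCFU-E. Col1a1 averaged 1.894 CPM in Lepr-Cre CFU-E and 0 in Lepr-Cre PreCFU-E. Adipoq was at 0 in every group but FL/FL CFU-E. The part of stromal markers in the stage differences was not tested. Endothelial markers summed to 42.5 to 57.1, 43.3 to 60.55 and 62.15 to 78.2 CPM in CFU-E of Lepr-Cre, KO/FL and FL/FL mice, and to 44.1 to 55.3, 56.1 to 80.2 and 63.5 to 74.6 CPM in PreCFU-E. KO/FL thus overlapped Lepr-Cre in CFU-E and FL/FL in PreCFU-E. Cdh5 averaged 0.0376 CPM in KO/FL CFU-E and 0 in the other groups. The part of endothelial markers in the genotype differences was not tested.

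Female and male mice were compared within each cell type with genotype in the fit. None of the 8 genes passed the threshold in PreCFU-E by edgeR, beside 0.223% of all genes, while 3 had an unadjusted p below 0.05 and DESeq2 called 1, Scd2. Of all 10309 genes tested there, 1026 had an unadjusted edgeR p below 0.05, and DESeq2 called 103. Scd2 was higher in females by 0.35 ± 0.09 on the log2 scale in PreCFU-E (adjusted p = 0.1258 by edgeR), Fabp5 by 0.45 ± 0.14 (adjusted p = 0.1985) and Abcg1 by 0.85 ± 0.30 (adjusted p = 0.2872). For each of these, named for their small unadjusted p, the female library was the highest of its genotype in 3 of 3 genotypes. The Scd2 difference passed with no filter on low counts and without KO/FL A, and its log2 value was 0.35 with DESeq2 and 0.40 without KO/FL A. Apoe was 0.28 ± 0.15 higher in females (adjusted p = 0.5898), and the other genes had adjusted p of 0.7128 or more. In CFU-E none of 7 tested passed, beside 0.0785% of all genes, 1 had an unadjusted p below 0.05 (Fabp5, 0.41 ± 0.17, adjusted p = 0.9777), and DESeq2 called none. Of all 10192 genes tested in CFU-E, 484 had an unadjusted edgeR p below 0.05, and DESeq2 called 26. Since the female mice are the B mice, sex and letter cannot be told apart.

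The other lipid genes were read from 8 lists with 239 genes in the table, of which 147 were tested in PreCFU-E, 146 in CFU-E and 153 between stages. The lists were set by function, with earlier results of these data known, and each gene is tested by edgeR with adjustment over all genes. Between stages, that fit had no mouse term. Between stages, 43 of 153 were called in FL/FL mice (29 higher and 14 lower in CFU-E, 28.1% beside 18.3% of all genes), 30 in KO/FL mice (19 and 11, 19.6% beside 14.1%) and 18 in Lepr-Cre mice (14 and 4, 11.8% beside 7.25%). The median log2 fold change of the lists together was 0.056, -0.0087 and 0.0585 in Lepr-Cre, KO/FL and FL/FL mice, and of all genes -0.0072, 0.0031 and 0.014. Without FL/FL CFU-E B the FL/FL count was 28, beside 1342 in place of 1963 over all genes. Without Lepr-Cre PreCFU-E A the Lepr-Cre count was 11, beside 473 in place of 778.

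By list, the genes called between stages in Lepr-Cre, KO/FL and FL/FL mice were 6, 9 and 13 of 34 for phospholipids and sphingolipids, of which 5, 7 and 7 were higher in CFU-E and 1, 2 and 6 lower. They were 4, 8 and 8 of 22 for triglycerides and lipid droplets, with 2, 4 and 5 higher and 2, 4 and 3 lower, and 3, 4 and 7 of 22 for fatty acid synthesis and desaturation, with 3, 3 and 6 higher and 0, 1 and 1 lower. The counts were 3, 3 and 4 of 16 for fatty acid binding and activation, 1, 1 and 3 of 23 for fatty acid oxidation, and 0, 1 and 3 of 13 for apolipoproteins and lipoprotein receptors. In the last list DESeq2 also called 0 in Lepr-Cre mice, and 1 gene had an unadjusted p below 0.05. The FL/FL calls of that list include Lcat, on 48 summed counts in CFU-E and 2 in PreCFU-E. Lpcat1, which reacylates lysophosphatidylcholine, averaged 184 ± 24.4, 183 ± 10.4 and 173.5 ± 23.98 CPM in CFU-E of Lepr-Cre, KO/FL and FL/FL mice, against 94.1 ± 5.27, 52.5 ± 5.72 and 41.6 ± 5.36 CPM in PreCFU-E (SD, n = 3 each). Its log2 fold change was 0.97 ± 0.13, 1.81 ± 0.13 and 2.06 ± 0.14 (edgeR adjusted p = 9.79e-06, 9.75e-11 and 4.07e-12). Mboat2, another such acyltransferase, rose by 1.30 ± 0.17, 1.92 ± 0.17 and 2.60 ± 0.17, and Sgpl1, the sphingosine-1-phosphate lyase, by 1.28 ± 0.28, 1.86 ± 0.29 and 2.10 ± 0.28 in the same order. Ugcg, the glucosylceramide synthase, changed by -0.47, -0.47 and -0.52. The other genes of the list lower in FL/FL mice were named after their values were seen. They were the ceramide synthases Cers4, Cers5 and Cers6, Kdsr of sphingoid base synthesis and Mboat1. Cers5, Cers6 and Mboat1 changed by -2.25 ± 0.78, -4.71 ± 1.51 and -3.92 ± 1.30, with wide SE. Of this list 34 genes passed the filter on low counts between stages but 31 within CFU-E. Calls of genes that passed it through 1 stage alone, in any list, are not read as tests. The polyunsaturated fatty acid desaturase gene Fads2 rose by 0.58 ± 0.12, 0.62 ± 0.12 and 0.70 ± 0.12 and its relative Fads3 by 1.44 ± 0.30, 2.61 ± 0.32 and 2.77 ± 0.32. The acyl-CoA synthetase Acsl6, which activates fatty acids, rose by 0.86 ± 0.20, 1.58 ± 0.21 and 1.80 ± 0.21, while its relative Acsl1 changed by -0.35, -0.39 and -0.35. Agpat4 and Mgll of the triglyceride list rose in all 3 genotypes, and Nceh1, a cholesteryl ester hydrolase, changed by -0.81, -1.17 and -1.09.

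Among transporters of the same families, Abcg4, a relative of Abcg1 that also exports cholesterol, rose where Abcg1 was lower. It averaged 103.0 ± 20.7, 111 ± 3.12 and 107.5 ± 5.12 CPM in CFU-E of Lepr-Cre, KO/FL and FL/FL mice, against 49.5 ± 11.4, 20.4 ± 3.73 and 22.1 ± 8.92 CPM in PreCFU-E. Its log2 fold change between the stages was 1.06 ± 0.21, 2.46 ± 0.22 and 2.26 ± 0.22 (edgeR adjusted p = 0.00149, 1.22e-08 and 1.91e-08). In FL/FL mice Abca3, Abcg2 and Abca7 of that list also rose, by 0.67 ± 0.10, 0.70 ± 0.15 and 0.65 ± 0.16. Of 14 tested genes of sterol regulation (liver X receptor and SREBP regulators and liver X receptor targets), none was called between the stages in any genotype by edgeR. Their unadjusted p was below 0.05 for 2, 5 and 3 genes in Lepr-Cre, KO/FL and FL/FL mice, and DESeq2 called 1, 0 and 0.

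Between genotypes in PreCFU-E, 8 of 147 other lipid genes were called for Lepr-Cre against FL/FL, 5.44% beside 6.13% of all genes, and 4 for Lepr-Cre against KO/FL, 2.72% beside 2.18%. Both shares are close to the background. Lpcat1 rose in Lepr-Cre mice by 1.18 ± 0.16 against FL/FL and 0.84 ± 0.16 against KO/FL (edgeR adjusted p = 2.70e-05 and 0.00290), and Abcg4 by 1.15 ± 0.26 and 1.29 ± 0.26 (adjusted p = 0.00764 and 0.00723). Pcyt1a, which makes CDP-choline for phosphatidylcholine, rose by 0.51 ± 0.13 against FL/FL. The liver X receptor targets Mylip, a ligase that degrades the LDL receptor, and Smpdl3a changed by -1.33 and -1.07 against FL/FL (edgeR adjusted p = 0.0250 and 0.0188), the 2 called of 14 tested in that list, and Acss2, Ugcg and Sphk1 fell too. Against KO/FL, edgeR called 0 genes of that list and DESeq2 called 1. In PreCFU-E of Lepr-Cre, KO/FL and FL/FL mice, Mylip averaged 8.14, 10.2 and 20.6 CPM and Smpdl3a 13.7, 27.6 and 29.1 CPM. The KO/FL mean of Mylip thus lay near that of Lepr-Cre. Against KO/FL, Hsd17b12 fell by 0.58 (SE 0.14), and Elovl7, a fatty acid elongase, had 0 counts in the Lepr-Cre libraries against 41 summed counts and a mean of 2.07 CPM in KO/FL, at least 5.49-fold lower at a floor of 3 counts per library. Elovl7 passed the filter on low counts through the other genotypes alone, so its call is not read as a test. With the letter block the counts against FL/FL and KO/FL were 25 and 15, beside 1586 in place of 632 and 840 in place of 225 over all genes. With DESeq2 they were 14 and 8, beside 852 and 344 over all genes. Without FL/FL C, Lepr-Cre A, B or C the count against FL/FL was 3, 5, 5 and 2, in place of 3 higher and 5 lower genes, and no gene was called lower without FL/FL C or without Lepr-Cre C. Over all genes, leaving out the same 4 libraries gave 386, 471, 371 and 387 calls. Without KO/FL B or C or Lepr-Cre B or C the count against KO/FL was 2, beside 92, 158, 122 and 167 over all genes. No gene was called lower without KO/FL C or without any single Lepr-Cre library.

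In CFU-E, 9 of 146 were called for Lepr-Cre against FL/FL, 6.16% beside 4.83%, and 2 for Lepr-Cre against KO/FL, 1.37% beside 1.01%. Ppard, a nuclear receptor activated by fatty acids, averaged 37.2 ± 4.51 CPM in Lepr-Cre, 16.9 ± 4.75 CPM in KO/FL and 18.2 ± 5.11 CPM in FL/FL CFU-E, with log2 fold changes of 1.06 ± 0.25 against FL/FL and 1.15 ± 0.25 against KO/FL (edgeR adjusted p = 0.0148 and 0.0254). FABP5 is known to carry ligands to this receptor in cultured cells; whether the levels of both genes are linked was not tested. Sphk1, which makes sphingosine-1-phosphate, changed by -0.94 against FL/FL and -0.64 against KO/FL (edgeR adjusted p = 0.000629 and 0.0354). Degs1 and Elovl1, enzymes of ceramide and of very long chain fatty acid synthesis, rose by 0.72 ± 0.18 and 0.52 ± 0.15 against FL/FL, and Rxra, Smpdl3a, Cpt1c, Agpat3 and Mboat2 changed by -1.28, -0.93, -1.73, -0.75 and -0.84. Of the genes called against FL/FL, only Ppard and Sphk1 were also called against KO/FL. Rxra averaged 8.615, 12.4 and 21.4 CPM in CFU-E of Lepr-Cre, KO/FL and FL/FL mice. With the letter block the count against KO/FL was 6, beside 280 in place of 103 over all genes. DESeq2 called 16 against FL/FL and 7 against KO/FL, beside 755 and 229 over all genes. Without FL/FL A or B the count against FL/FL was 5, beside 221 and 246 in place of 492 over all genes. No gene was called higher without FL/FL B or without Lepr-Cre B. Against KO/FL the count was 0 without Lepr-Cre A, KO/FL B or KO/FL C, beside 81, 19 and 54 over all genes. Without Lepr-Cre B it was 1, beside 52.

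KO/FL against FL/FL called 0 other lipid genes by edgeR in PreCFU-E and CFU-E, with an unadjusted p below 0.05 for 12 and 3 of them and no call by DESeq2. Female against male mice likewise gave 0 calls in both cell types, with 11 and 6 of the genes at an unadjusted p below 0.05 and no call by DESeq2.

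**Figure D5:**
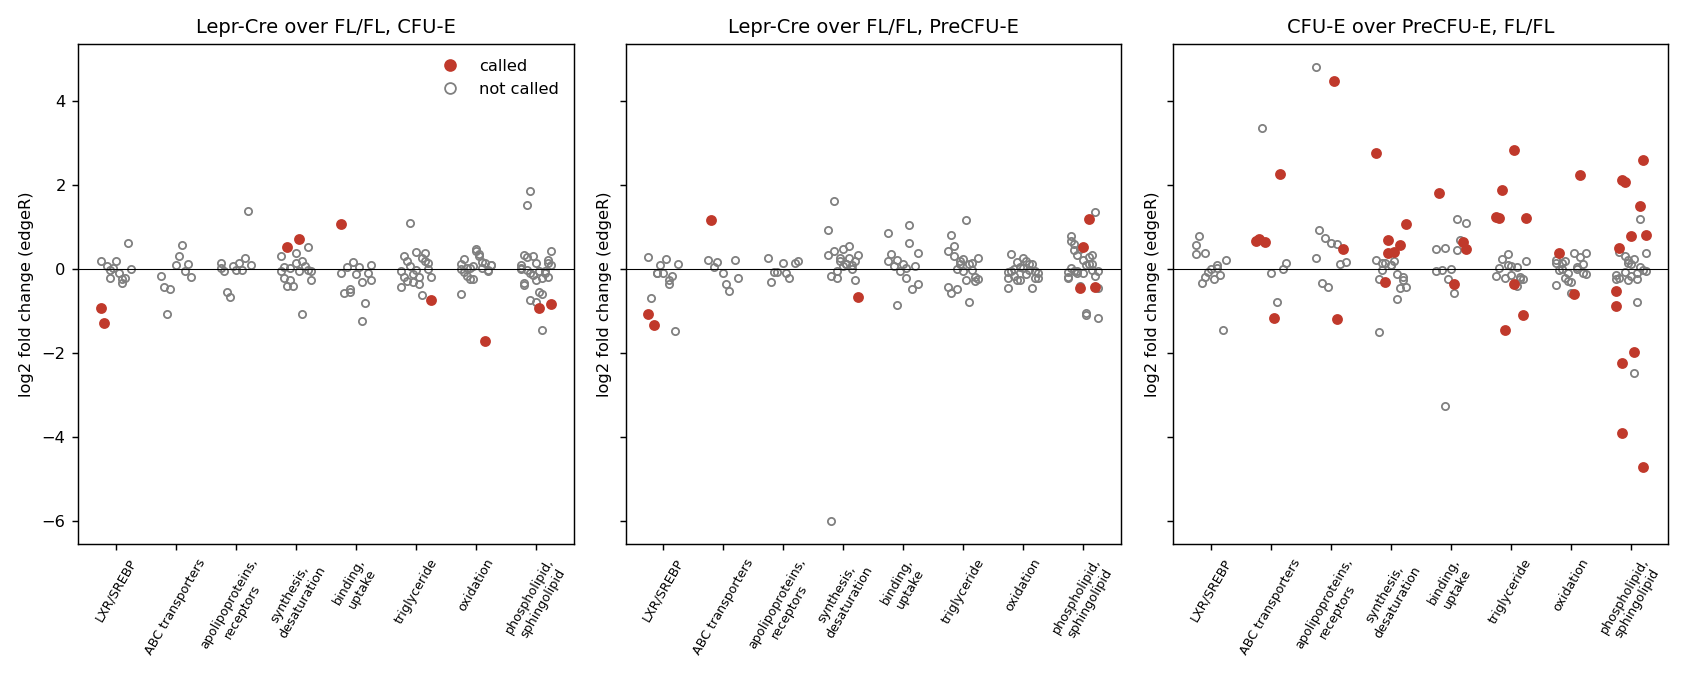
Log2 fold changes of the other lipid genes by list, for Lepr-Cre over FL/FL in CFU-E (left) and PreCFU-E (middle) and for CFU-E over PreCFU-E in FL/FL mice (right); each circle is a gene and filled ones passed an adjusted p of 0.05 in edgeR. The counts of filled genes are 9, 8 and 43.

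The genes whose levels ran most like each of the 8 were found by Pearson's r over the 18 libraries on log2(CPM + 0.5), among 8865 genes averaging at least 5 CPM. These libraries share stage, genotype and mouse, so r mainly follows the group differences already described. Nearest to Apoe were Heg1 (r = 0.971), Vav1 (0.971) and Arhgef2 (0.970), to Abca2 Man2a2 (0.980), Acap1 (0.968) and Wdfy4 (0.965), and to Abcg1 Phc1 (0.966), Mex3a (0.959) and Psmb8 (0.955). Nearest to Abca1 were Utrn (0.903), Elf1 (0.902) and Irf2bp2 (0.886), and to Scd2 Hk1 (0.937), Uba1 (0.924) and Chst12 (0.922). For the genes higher in CFU-E, Scd1 ran with Mtfr1 (0.959), Nxpe2 (0.953) and Mpp1 (0.9485) and Apol8 with Mier3 (0.9575), Recql4 (0.957) and Mybl2 (0.953). Fabp5 ran with Emilin2 (0.929), Wars (0.924) and Nop2 (0.923).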

How the data were processed

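The study measured RNA from sorted CFU-E and PreCFU-E of 3 Scf genotypes, prepared with a stranded total RNA kit for low input, per the labels' protocols. Per the submitters' processing notes, reads were aligned with STAR 2.5.2b to mm10 and counted with HTSeq; no HTSeq version, strand setting or annotation is stated in the labels. The deposited counts are whole reads per gene, without normalisation by the authors. In the deposited RPKM the authors divided each gene by 1 number, which lay within 2% of GENCODE M21 exonic length for 0.766% of 15400 symbols, so RPKM was not used and lengths came from GENCODE. Counts were fitted with edgeR 4.0.16 in R 4.3.3 (TMM, filterByExpr with minimum count 10 and minimum total 15, robust quasi-likelihood test, Benjamini-Hochberg, threshold 0.05), two-sided. Genotype and sex were fitted on 9 libraries per cell type and stage on 18. An SE was taken as |log2 fold change| over the square root of F. The fit was tested on simulated data. The 8 genes and all lists were chosen with earlier results of these data known. Genes named beyond the 8 are up to 4 called genes per list and comparison by smallest p, and the 3 most alike by correlation. Outside this rule, Cers4, Cers5, Cers6, Kdsr, Mboat1 and Lcat's counts were added after their values were seen. The same holds for the stage values of Ugcg and the FL/FL stage value of Nceh1. For libraries without a count, the upper limit was set at 3 counts.  Mice pair the stages by design, since both cell types came from each (correlation of deviations 0.111 to 0.197). The main stage fit had no mouse term, so its SE and p do not use this pairing. Mouse entered as a block in an alternative fit alone. Between genotypes, deviations of libraries with the same letter correlated at 0.107 to 0.189, apart from Lepr-Cre with FL/FL in CFU-E, where C had 0.0877. Libraries of different letters were not compared, so pairing by letter is not shown. The labels do not say whether letters mark litters, days or batches, and letter B is also the female sex. Alternatives were DESeq2 1.42.0, DESeq2 size factors in edgeR, no filter, a replicate block and leaving out each library.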

Additional observations from a re-analysis of the deposited data

Results flagged for a closer look

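Abca2 was higher in Lepr-Cre than in FL/FL mice in every CFU-E library (log2 fold change 0.66) and lower in every PreCFU-E library (-0.69). Scd1 ran the other way, at -0.41 in CFU-E and 2.41 in PreCFU-E for Lepr-Cre over FL/FL. Fabp5 was higher in CFU-E than in PreCFU-E in each Lepr-Cre mouse (0.54) and lower in each FL/FL mouse (-0.72). For these 3 genes the difference between the effects was not tested, since the genes were picked on such contrasts.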

How the results depend on the processing

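Of 870 recomputed fold changes of the 8 genes, 28 changed sign, 0 of them in called comparisons. Among the genotype and stage values, 9 moved by more than the SD between replicates, a check that was not made for the sex values. The counts of all genes called moved as follows. With DESeq2 they were 344 in PreCFU-E for Lepr-Cre against KO/FL and 5 for KO/FL against FL/FL, and 755, 229 and 1 in CFU-E for Lepr-Cre against FL/FL, Lepr-Cre against KO/FL and KO/FL against FL/FL; for sex they were 103 in PreCFU-E and 26 in CFU-E. With no filter on low counts they were 394 and 9, then 751, 244 and 2, then 149 and 31 in the same order. With the replicate block they were 1586, 840 and 9 in PreCFU-E for Lepr-Cre against FL/FL, Lepr-Cre against KO/FL and KO/FL against FL/FL, 933 and 280 in CFU-E for Lepr-Cre against FL/FL and KO/FL, and 1323 between stages in Lepr-Cre mice; the block moved no other count by over 1.5 times. Leaving out a library gave 371 to 471, 92 to 218 and 0 to 1 calls in PreCFU-E for the 3 genotype comparisons, 221 to 610, 19 to 101 and 0 to 1 in CFU-E, 473 to 789 between stages in Lepr-Cre mice, and 4 to 43 and 4 to 18 for sex in PreCFU-E and CFU-E. For the comparisons of Lepr-Cre mice, the libraries whose loss moved a count by over 1.5 times were, in PreCFU-E, FL/FL B (416) and C (386) and Lepr-Cre B (371) and C (387) for Lepr-Cre against FL/FL, and KO/FL B (92) and Lepr-Cre B (122) for Lepr-Cre against KO/FL. In CFU-E they were FL/FL A (221) and B (246), then KO/FL B (19) and C (54) and Lepr-Cre B (52), and between stages in Lepr-Cre mice PreCFU-E A (473) and CFU-E B (518). The causes were not tested. Depth limits Abcg1 in CFU-E and Apol8 and Scd1 in PreCFU-E, where a count of 0 allows up to 0.310 to 0.438 CPM.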
